A study of Mus musculus with 12 samples.

Results

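The plasma membrane calcium pumps are encoded by 4 mouse genes, Atp2b1, Atp2b2, Atp2b3 and Atp2b4, and all 4 were found by symbol among the 55335 gene rows of the deposited matrices. They are described in single nuclei of the juvenile mouse cortex, across classes of nuclei set by marker transcripts and in Het against WT animals. The family was selected with earlier results of these nuclei in view, because Atp2b4 was higher in Het layer 6 corticothalamic neurons. The Het and WT values of the 4 genes in that class are therefore a description without a test.

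The series covered the brain cortex of 12 animals at P21, and each genotype, WT or MYT1L Het, was represented by 3 males and 3 females. The line is MYT1L S710fsX, a frameshift allele of the neuronal transcription factor MYT1L on a C57BL/6 background, and Het animals carried it in the germline and so in every cell type. Every animal, controls included, came from litters whose newborn pups received intraventricular AAV9 with the calling cards constructs hyPB and H2b-tdT-SRT, so no group here was free of virus. Animals came from several banked litters that the labels do not tie to single animals, and nuclei from flash-frozen tissue were barcoded with the Scale Biosciences kit.

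Plasma membrane calcium ATPases are single-chain pumps that use ATP to move calcium out of the cell, and calmodulin relieves their autoinhibition. They bind calcium tightly and keep resting calcium low, whereas sodium calcium exchangers carry larger loads after activity. In neurons they act in dendrites, spines and presynaptic terminals, and the accessory proteins neuroplastin and basigin assemble with them as obligatory subunits. Atp2b1 encodes the widely expressed PMCA1, and Atp2b4 encodes PMCA4, which is also found in many tissues. Atp2b2 encodes PMCA2, a fast pump known from cochlear hair cells and cerebellar Purkinje cells, and the X-linked Atp2b3 encodes PMCA3, which is largely restricted to brain.

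In mm10, the build the authors mapped to, Atp2b1 (ENSMUSG00000019943.10) lies on the plus strand at chr10:98914406-99026143. Atp2b2 (ENSMUSG00000030302.16) lies on the minus strand at chr6:113743831-114042613, and Atp2b4 (ENSMUSG00000026463.17) on the minus strand at chr1:133699457-133801041. Atp2b3 (ENSMUSG00000031376.15) lies on the plus strand at chrX:73503086-73571005. Atp2b2 spans 298783 bases and overlaps the sense-intronic gene Gm44167 and the antisense genes Gm15082 and Gm15083, whose levels over all classed nuclei were 10.9, 0.168 and 5.28 CPM (counts-per-million of all UMIs). Atp2b4 overlaps Mir6903 and Gm37368, at 0 and 3.66 CPM. No gene of the annotation overlaps Atp2b1 or Atp2b3.

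MYT1 family zinc fingers recognise a core of AAGTT, so the RefSeq promoter windows of GRCm38.p6, from 250 bases before to 50 bases after each RefSeq start, were searched for these letters on both strands. AAGTT occurred in 12918 of 32851 windows, or 39.3% of all windows of this length. The table held 6 windows for 3 of the 4 pump genes, and 2 of the 6 held the motif, while the single Atp2b4 window did not. That Atp2b4 window (chr1:133753698-133753997, minus strand) lies inside the gene, and its annotated start at 133801041 was not searched. The matches are shown because the study concerns MYT1L, with the motif in capitals (AACTT is AAGTT read on the other strand), each on the gene's strand and 5′ to 3′. The first motif starts 177 bases before the RefSeq start of its window, which lies downstream of the annotated start given above, so that the motif is 59 bases inside the annotated gene. It is shown with its flanks at chr10:98914453-98914481 (plus strand). The second starts 132 bases before an internal RefSeq start of Atp2b2 and is shown at chr6:113934797-113934825 (minus strand).
Atp2b1: accgcgcgctgcAAGTTctgatccccgcc
Atp2b2: ggggccttatgcAACTTctaacattgttc

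The matrices held 78743 barcodes, none shared between libraries, with 23425408 to 59947428 transcripts (UMIs, unique molecular identifiers) per WT animal and 36293892 to 56950644 per Het animal. The study describes more nuclei after its filters than the barcodes analysed here, so the nuclei below are not its set. After the study's quality limits and removal of likely doublets, 33112 nuclei remained, of which 16287 were excitatory, 5881 inhibitory and 2376 non-neuronal by marker UMIs and 8568 had no class. Classes carry the suffix -like, and neurons with no clear type stay together as other excitatory or other inhibitory. L6 CT-like nuclei held 7525 to 8669 CPM of the L6 CT markers (Foxp2, Hs3st4, Rprm and others), against 301 to 441 CPM in L2/3 IT-like, 935 to 1248 in other excitatory and 1275 to 2229 in striatal projection-like nuclei. Levels are CPM of all UMIs of a class in an animal, each class value needs 10 nuclei of an animal, and no level is compared between genes. Myt1l, the mutated gene, was tested in 13 classes and called different in 0 of them, with 2 unadjusted p under 0.05, and in L6 CT-like nuclei it stood at a log2 fold change of 0.21 (edgeR quasi-likelihood test, adjusted p = 0.149). A frameshift need not lower the transcript, so this does not check the genotype labels.

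Atp2b1 was present in every class, and its mean levels ran from striatal projection-like and excitatory neurons down over the remaining inhibitory classes to glia. Its mean was 1274 ± 347 CPM (SD, n = 12 animals) in striatal projection-like nuclei, 1038 ± 94.0 in L6 CT-like nuclei and 806 ± 73.0 in L2/3 IT-like (intratelencephalic) nuclei. L6 IT-like, other excitatory, L5 NP-like (near-projecting) and L4/5 IT-like nuclei followed at 786 ± 182, 735 ± 51.2, 593 ± 77.3 and 504 ± 78.2 CPM. The remaining inhibitory classes came next, from 440.0 ± 148 CPM in other inhibitory nuclei over 377 ± 66.1 in Lamp5-like, 335 ± 62.2 in Pvalb-like and 317 ± 58.8 in Sst-like nuclei to 272 ± 118 in Vip-like nuclei (n = 12, or 11 for Sst-like and Vip-like). The lowest levels were in glia and fibroblasts, with 221 ± 42.6 CPM in oligodendrocyte-like nuclei (n = 12), 215 ± 61.4 in leptomeningeal fibroblast-like nuclei (n = 6), 193 ± 137 in astrocyte-like nuclei (n = 6) and 155 ± 63.5 in oligodendrocyte precursor-like nuclei (n = 10). For all 4 genes these animals were 2 WT and 4 Het for fibroblast-like, 1 WT and 5 Het for astrocyte-like and 4 WT and 6 Het for precursor-like nuclei. The highest and lowest class means thus differed 8.22-fold. With TMM-scaled CPM over all classes, L6 CT-like nuclei stood first and astrocyte-like nuclei last.

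Neighbouring classes in each gene's order were compared within animals by an exact two-sided sign-flip permutation test on log2(CPM + 1), with Benjamini-Hochberg adjustment over the 60 pairs of the 4 genes. For Atp2b1, 2 of 15 steps passed the threshold of an adjusted p under 0.05. L6 CT-like exceeded L2/3 IT-like nuclei by 0.37 on the log2 scale in 12 of 12 animals, and other excitatory exceeded L5 NP-like nuclei by 0.32 in 12 of 12 animals (both exact p = 0.000488, adjusted p = 0.0146). The step from striatal projection-like to L6 CT-like nuclei was 0.25, in 8 of 12 animals (exact p = 0.0229, adjusted p = 0.153). With 12 animals the smallest p this test can give is 0.000488, and with 6 it is 0.03125.

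Atp2b2 had its highest mean levels in neuronal classes, lower ones in astrocyte-like and oligodendrocyte precursor-like nuclei and little signal in oligodendrocyte-like nuclei. Its mean was 791 ± 105 CPM in L2/3 IT-like, 779 ± 144 in L4/5 IT-like, 715 ± 65.2 in L6 CT-like and 715 ± 149 in striatal projection-like nuclei (SD, n = 12). Other excitatory, L5 NP-like and L6 IT-like nuclei held 660 ± 63.4, 629 ± 86.5 and 535 ± 199 CPM. By the median over animals L4/5 IT-like nuclei stood first. This order pools the genotypes, and in the 6 WT animals alone L6 IT-like nuclei were at 397 ± 87.7 CPM, below the WT means of Vip-like (530 ± 72.9, n = 5), other inhibitory (442 ± 36.1) and Pvalb-like nuclei (432 ± 51.97). Inhibitory classes other than striatal projection-like lay between 499 ± 80.8 CPM in Vip-like (n = 11) and 359 ± 67.8 CPM in Lamp5-like nuclei (n = 12), with Pvalb-like nuclei at 464 ± 59.96, other inhibitory at 462 ± 44.8 and Sst-like at 364 ± 65.3.

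Outside neurons, Atp2b2 was at 320 ± 136 CPM in astrocyte-like nuclei (n = 6) and 146 ± 43.6 CPM in oligodendrocyte precursor-like nuclei (n = 10), but at 14.7 ± 4.55 CPM in oligodendrocyte-like nuclei (n = 12). The astrocyte-like value rested on 64.5 UMIs from 1 WT and 5 Het animals. Its step to the precursors did not pass the threshold (adjusted p = 0.262 in the exact permutation test). The step from precursors to oligodendrocytes was 3.29 on the log2 scale in 10 of 10 animals (exact p = 0.00195, adjusted p = 0.0234). The only other step past the threshold was other inhibitory above Sst-like nuclei, by 0.36 in 10 of 11 animals (exact p = 0.00293, adjusted p = 0.0293). Leptomeningeal fibroblast-like nuclei gave 3 UMIs of Atp2b2 in all over 6 animals. Beside these levels, Syt1, Snap25 and Rbfox3, taken as neuronal transcripts, together stood at 4.99% of the neuronal median in astrocyte-like, 10.3% in oligodendrocyte precursor-like and 2.23% in oligodendrocyte-like nuclei. In the precursors Snap25 (181 CPM) was above Syt1 (150.0 CPM), unlike in neurons, and the source of these transcripts was not tested. Glial nuclei were shallower, with median UMIs per animal of 1716 to 2678 in astrocyte-like nuclei against 3172 to 3828 in L6 CT-like nuclei.

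Atp2b3 differed little between the neuronal classes with values per animal. Its means in these 12 classes ran from 54.5 ± 8.50 CPM in other inhibitory to 75.2 ± 6.42 CPM in other excitatory nuclei (SD, n = 12). L5 NP-like, Sst-like, L6 CT-like and L6 IT-like nuclei held 73.4 ± 18.9, 71.8 ± 31.2, 70.3 ± 10.4 and 69.7 ± 31.2 CPM. Vip-like, Pvalb-like and L2/3 IT-like nuclei were at 65.7 ± 33.6, 64.8 ± 19.9 and 64.5 ± 12.97 CPM, and L4/5 IT-like, Lamp5-like and striatal projection-like nuclei at 59.0 ± 19.6, 55.8 ± 28.4 and 55.2 ± 24.5. These means pool the genotypes. In WT animals alone L5 NP-like nuclei stood first (86.1 ± 18.4 CPM). In Het animals alone L6 IT-like nuclei stood first (81.8 ± 36.9) and striatal projection-like nuclei last (48.5 ± 12.2). None of the 15 steps between neighbouring classes passed the threshold for this gene. Classes further apart were not tested, and the animals' ranges at the 2 ends, 40.2 to 67.1 CPM in other inhibitory and 69.2 to 90.4 CPM in other excitatory nuclei, did not overlap. Oligodendrocyte precursor-like nuclei held 29.9 ± 22.4 CPM from 25 UMIs in all (n = 10), oligodendrocyte-like nuclei 8.67 UMIs over 12 animals, and astrocyte-like and leptomeningeal fibroblast-like nuclei 1 UMI each.

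Atp2b4 varied most by layer, and L6 IT-like nuclei stood above every other class. Its level there was 296 ± 48.1 CPM (n = 12), with single animals from 204 to 399 and a median of 295 CPM. L6 CT-like, L2/3 IT-like and other excitatory nuclei followed at 171 ± 37.1, 145 ± 35.7 and 123 ± 25.2 CPM, whereas L5 NP-like and L4/5 IT-like nuclei held 57.0 ± 27.5 and 46.6 ± 22.02 CPM. L6 IT-like exceeded L6 CT-like nuclei by 0.80 on the log2 scale in 11 of 12 animals, and other excitatory exceeded other inhibitory nuclei by 0.84 in 11 of 12 animals (both exact p = 0.000977, adjusted p = 0.0146). The steps from L6 CT-like to L2/3 IT-like nuclei and on to other excitatory nuclei did not pass the threshold, at adjusted p = 0.298 and 0.210 in the exact permutation test. This order pools the genotypes, and the place of L6 CT-like above L2/3 IT-like nuclei came from the Het animals. Mean levels in these classes were 140.9 and 141.4 CPM in WT animals, against 201 and 149 CPM in Het animals. The Het values in L6 CT-like nuclei are among those that led to the choice of the family.

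Among inhibitory neurons Atp2b4 was at 69.6 ± 21.5 CPM in other inhibitory, 67.7 ± 36.3 in striatal projection-like, 46.3 ± 24.6 in Sst-like and 43.5 ± 31.8 in Lamp5-like nuclei. Pvalb-like nuclei held 11.8 ± 13.9 CPM, from 26 UMIs in all, and Vip-like nuclei 4.06 ± 7.00 CPM, from 3.5 UMIs over 11 animals. These 2 interneuron classes had the lowest neuronal means, but their neighbours in the order were not neurons, so they were not tested against another neuronal class. Oligodendrocyte precursor-like nuclei held 58.3 ± 33.2 CPM (n = 10), astrocyte-like 38.6 ± 35.6 (n = 6), leptomeningeal fibroblast-like 29.6 ± 24.6 (n = 6) and oligodendrocyte-like nuclei 5.56 ± 3.69 (n = 12).

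**Figure D1:**
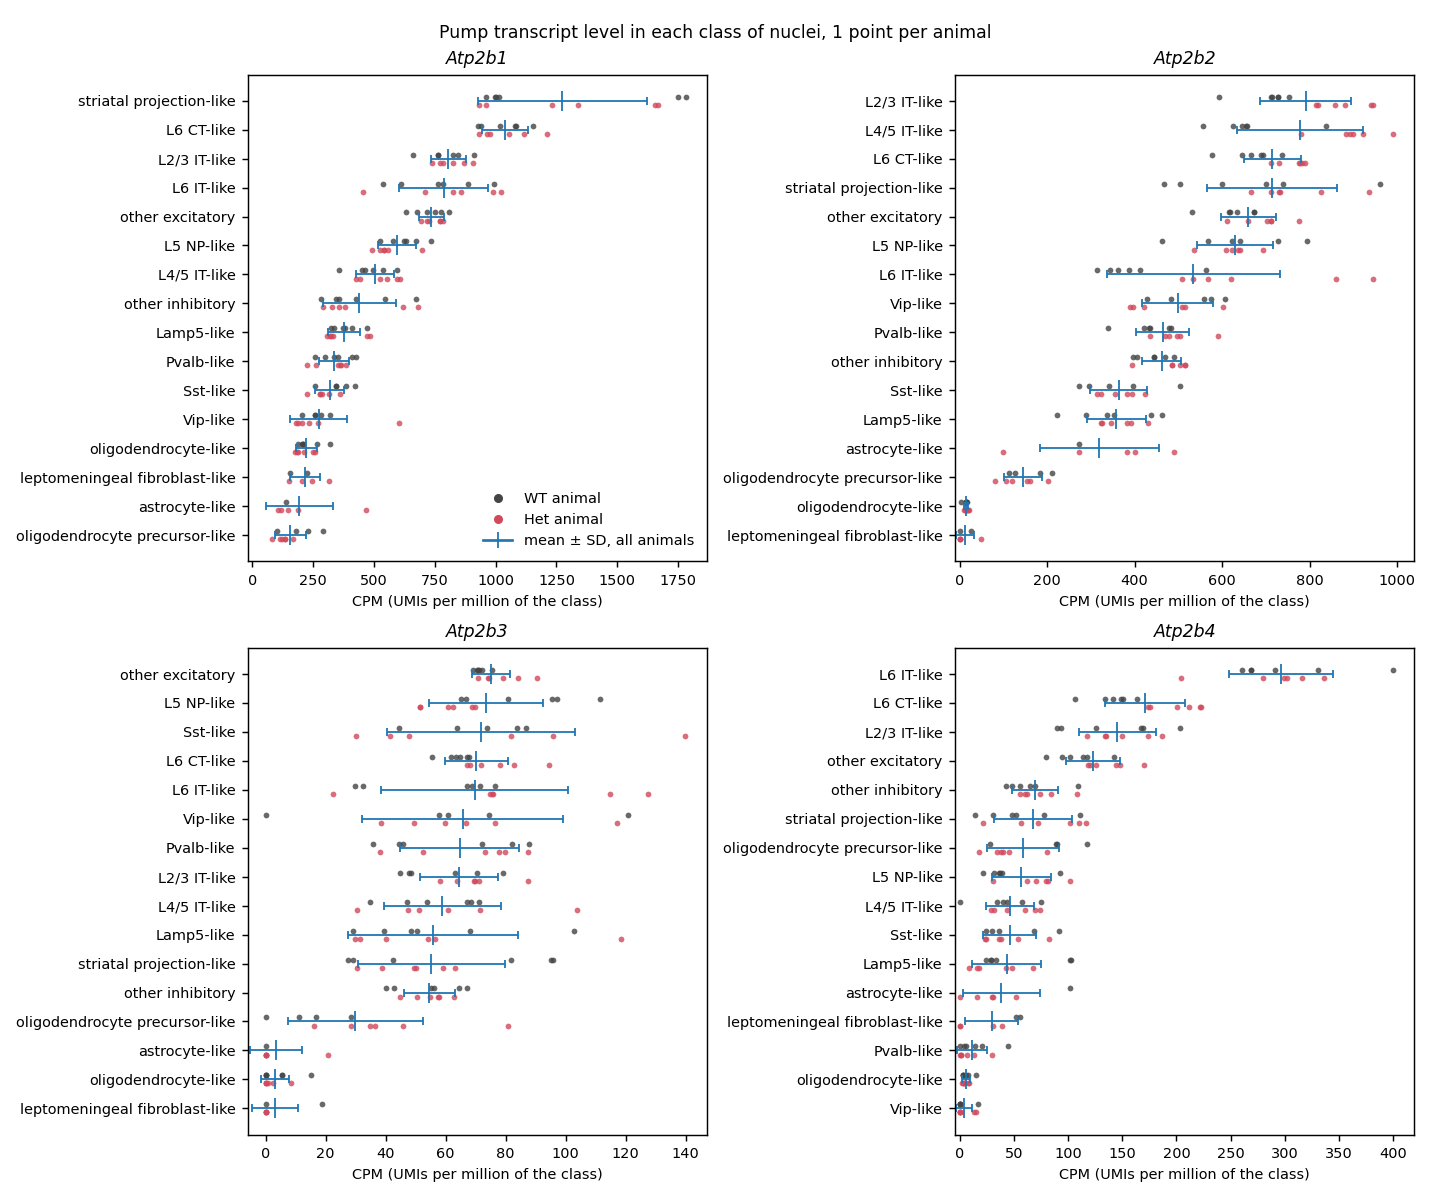
Level of each pump gene in 16 classes, 1 panel a gene, in CPM of the class's UMIs on a linear axis that differs between panels; points are animals, coloured by genotype, and the mark with bars is the mean ± SD. Atp2b1 is highest in striatal projection-like (1274 CPM) and L6 CT-like nuclei, Atp2b4 in L6 IT-like nuclei (296 CPM), and the 12 neuronal class means of Atp2b3 lie between 54.5 and 75.2 CPM.

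Classes with too few nuclei per animal were summed over all animals, with exact 95% Poisson intervals that cover counting error only. Car3-type claustral-like neurons (69 nuclei) held Atp2b2 at 1277 CPM (1144 to 1422), an interval above its highest class mean given above (791 CPM). They held Atp2b1 at 736 CPM and Atp2b4 at 72.9 CPM (43.9 to 114). Their Atp2b3 was at 23.01 CPM (8.45 to 50.1, from 6 UMIs), an interval below the lowest of its 12 neuronal class means. L5 ET-like (extratelencephalic) neurons (59 nuclei) held Atp2b3 at 141 CPM (96.1 to 198), an interval above the highest of those means, and Atp2b1 at 979 CPM (855 to 1117). L6b-like neurons (70 nuclei) held Atp2b4 at 178 CPM (129 to 238). In 13 endothelial and mural-like nuclei Atp2b1 had 18 UMIs, or 399 CPM (237 to 631). Atp2b2 had none there, which allows up to 81.8 CPM. The 165 microglia-like nuclei were left out of the order because their neuronal transcripts stood at 44.4% of the neuronal median.

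Over the 16 class means the genes most like each pump gene were ranked by Pearson correlation among 10365 genes, as a description, since the class means share libraries and depth. Nearest to Atp2b1 were Mrtfb (r = 0.964), Traip (0.960) and Gm15810 (0.950), all highest in striatal projection-like nuclei. Nearest to Atp2b2 were the adhesion receptor gene Adgrb3 (r = 0.978), the acid-sensing channel gene Asic2 (0.969) and Gramd1b (0.969). Nearest to Atp2b3 over these classes were the spectrin gene Sptbn4 (r = 0.995), Srrm3 (0.993) and Cdr1os (0.993). Atp2b3 means were 54.5 to 75.2 CPM in neuronal classes but 3.12 to 3.49 CPM in astrocyte-like, oligodendrocyte-like and fibroblast-like nuclei. Such values of r can reflect that split alone. Atp2b4 had looser matches in Chst9 (r = 0.881), Gm14636 (0.870) and 3110082I17Rik (0.863), each highest in L6 IT-like nuclei. Between members r ran from 0.442 (Atp2b2 and Atp2b4) to 0.818 (Atp2b2 and Atp2b3).

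In Het against WT, Atp2b4 in L6 CT-like nuclei was the member that led to the choice of the family. The 6 WT animals ranged from 107 to 163 CPM with a median of 145, and the 6 Het animals from 174 to 223 CPM with a median of 206. The groups did not overlap. The log2 fold change was 0.48 ± 0.09 (SE), or 1.398-fold, in a class where 0.235% of the genes tested were called (18 of 7668, edgeR quasi-likelihood test, adjusted p under 0.05 and a log2 change over 0.2), and nothing is read from that share for Atp2b4. L6 CT markers differed little between the genotypes, at 7646 to 8400 CPM in WT and 7525 to 8669 in Het animals. These same markers set the class, so their sums cannot show whether its make-up was alike in both genotypes. The 7 L6 IT markers, which mark the class with the most Atp2b4, summed to 199 to 259 CPM in WT and 256 to 286 CPM in Het L6 CT-like nuclei, with 4 of 7 higher and none at 0. Named after their values were seen, Col23a1 (mean 78.7 in WT and 109 CPM in Het animals), Adamts2 (14.6 and 23.8) and Sulf1 (91.1 and 98.5) were higher and Zfp804b was lower (39.6 and 35.4), while Penk (1.07 and 0.789), Col27a1 (1.44 and 1.39) and Osr1 (0.218 and 0.357) were near 0 in both. The 8 markers of striatal projection neurons summed to 1093 to 1560 CPM in WT (median 1245) and 1387 to 1534 CPM in Het animals (median 1443), with 6 of 8 higher and nearly all of the sum from Pde10a. The part of either list in the Atp2b4 difference was not tested.

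Also in L6 CT-like nuclei, Atp2b2 ranged from 576 to 737 CPM in WT (median 677) and from 712 to 790 CPM in Het animals (median 778). All 6 Het animals were above the WT median and 4 above the highest WT animal, with a log2 fold change of 0.17 ± 0.07 (SE). Atp2b3 ranged from 55.5 to 67.9 CPM in WT and from 67.3 to 94.3 CPM in Het animals, with 5 above the highest WT animal. Its log2 fold change was 0.22 ± 0.12, or 0.11 with the limits on UMIs, genes and their ratio lifted. Atp2b1 overlapped, at 925 to 1154 CPM in WT and 934 to 1212 CPM in Het animals, with a log2 fold change of -0.01 ± 0.07 over both sexes. By sex its means were 960 ± 49.2 CPM in WT and 1102 ± 119 in Het females, and 1106 ± 41.9 in WT and 984 ± 62.3 in Het males (SD, n = 3 each), a description without a test.

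**Figure D2:**
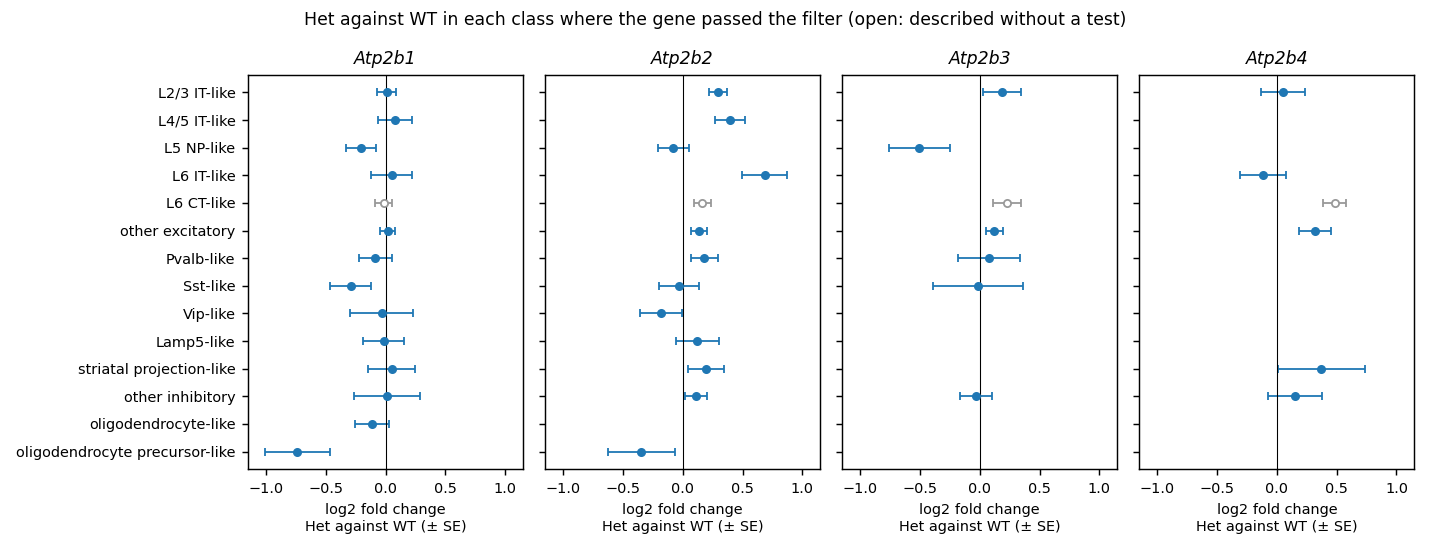
Het against WT log2 fold change of each pump gene in each class that passed the filter on low counts, with bars of 1 SE from the edgeR fit (open marks for L6 CT-like nuclei, which have no test). Atp2b2 lies above 0 in the intratelencephalic classes, up to 0.69 in L6 IT-like nuclei, while Atp2b1 lies near 0 in most classes and reaches -0.74 in oligodendrocyte precursor-like nuclei.

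Outside L6 CT-like nuclei none of the 4 genes passed the test in any class. The edgeR quasi-likelihood test gave 36 results for the members in 13 classes, 0 of them called, where 0.0202% of all genes tested were called (0.0504% in L2/3 IT-like, 0.0684% in L6 IT-like, 0.0337% in Pvalb-like, 0.128% in Sst-like, 0.0176% in other excitatory and 0% in the other 8 classes). Of the members' tests, 6 of the 36 had an unadjusted p under 0.05, beside 5.81% of all genes tested in these classes, and DESeq2 called 1 (0.0646% of all genes). Of those 6, 4 were for Atp2b2, and the classes share the same animals, so the tests are not independent. The filter on low counts let Atp2b1 through in 13 of these classes, Atp2b2 in 12, Atp2b3 in 6 and Atp2b4 in 5.

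The difference of Atp2b4 in L6 CT-like nuclei had no called counterpart in the 5 other neuronal classes where the gene was tested. In each of these classes at most 0.0684% of all genes tested were called, so the absence of a call says little about Atp2b4. Untested were L5 NP-like nuclei (43.0 ± 24.9 CPM in WT and 71.1 ± 23.9 in Het animals, SD, overlapping) and the L4/5 IT-like and Vip-like nuclei, with higher Het means. Also untested were Pvalb-like, Sst-like and Lamp5-like nuclei, where the Het mean of Atp2b4 was lower. In L6 IT-like nuclei, where its level was highest, WT animals ranged from 260 to 399 CPM (median 280) and Het animals from 204 to 336 CPM (median 301), and the log2 fold change was -0.12 ± 0.19 (edgeR, adjusted p = 0.932). In L2/3 IT-like nuclei the ranges were 90.2 to 203 and 118 to 187 CPM, with a log2 fold change of 0.05 ± 0.18 (edgeR, adjusted p = 0.974). The groups overlapped in both classes. Whether the L6 CT-like change differs from these was not tested.

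In other excitatory nuclei Atp2b4 ranged from 79.8 to 142 CPM in WT (median 108) and from 118 to 170.0 CPM in Het animals (median 135). All 6 Het animals were above the WT median and 3 above the highest WT animal, with a log2 fold change of 0.32 ± 0.14 (edgeR, adjusted p = 0.780). L6 CT markers summed to 935 to 1148 CPM in WT and 993 to 1248 CPM in Het animals of this class, with 7 of 7 higher, and the striatal projection markers to 1059 to 1531 CPM (median 1269) and 1334 to 1667 CPM (median 1444), with 6 of 8 higher. Their part was not tested. Other inhibitory and striatal projection-like nuclei gave 0.15 ± 0.22 and 0.37 ± 0.36 (edgeR, adjusted p = 1.00 and 0.897).

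Atp2b2 was above 0 in Het against WT in 8 of 12 classes outside L6 CT-like nuclei, from -0.35 to 0.69, beside 47.1 to 51.4% of all genes above 0 in each of these classes, which share the same animals. Its values are given for the 3 classes with an unadjusted p under 0.01, all of them intratelencephalic neurons, the cells that project within the cortex and to the striatum. In L2/3 IT-like nuclei WT animals ranged from 593 to 754 CPM (median 721) and Het animals from 816 to 945 CPM (median 870). The groups did not overlap, and the log2 fold change was 0.29 ± 0.08 (SE; edgeR, unadjusted p = 0.000462, adjusted p = 0.115). DESeq2 put the same change at 0.29 with an adjusted p of 0.0435, and edgeR with no filter on low counts at 0.35 with 0.0481. Without the study's limits on UMIs, genes and their ratio, lifted together, it was 0.18.

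In L6 IT-like nuclei Atp2b2 ranged from 315 to 562 CPM in WT (median 375) and from 508 to 944 CPM in Het animals (median 593). All 6 Het animals were above the WT median and 4 above the highest WT animal, with a log2 fold change of 0.69 ± 0.19 (SE), or 1.61-fold (edgeR, adjusted p = 0.0856). It passed the threshold without WT male 1 (0.84, edgeR adjusted p = 0.0360) and fell to 0.24 without the limits on UMIs, genes and their ratio. This class was small, with 10 to 39 nuclei per animal, and its L6 CT markers summed to 442 to 908 CPM in WT and 576 to 1423 CPM in Het animals, 5 of 7 higher and mostly from Hs3st4 (mean 355 and 778 CPM). The striatal projection markers summed to 719 to 1187 CPM (median 764) in WT and 990 to 1177 CPM (median 1056) in Het animals of this class, with 3 of 8 higher. The part of either list was not tested.

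In L4/5 IT-like nuclei Atp2b2 ranged from 557 to 839 CPM in WT (median 650) and from 781 to 990 CPM in Het animals (median 896). Here 5 Het animals were above the highest WT animal, and the log2 fold change was 0.39 ± 0.13 (SE, edgeR adjusted p = 0.471). It was 0.13 without the limits on UMIs, genes and their ratio. The striatal projection markers summed to 1297 to 1920 CPM (median 1581) in WT and 1315 to 2094 CPM (median 1855) in Het animals, with 4 of 8 higher. In L2/3 IT-like nuclei the WT and Het medians of lists that were higher in Het animals included the striatal projection markers (1286 and 1562 CPM, 6 of 8 higher), the L6 CT markers (357 and 407 CPM, 5 of 7) and the L5 NP markers (93.2 and 124 CPM, 4 of 5). The part of these lists was not tested.

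**Figure D3:**
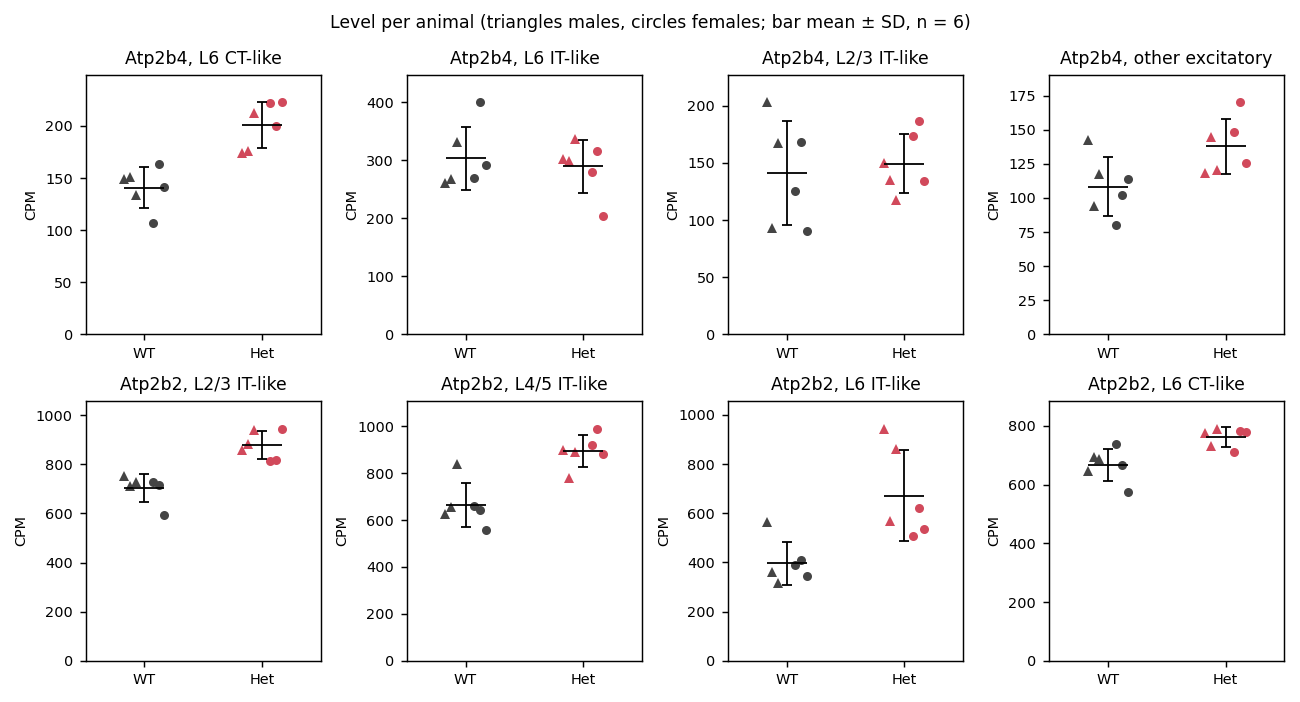
Atp2b4 and Atp2b2 in CPM per animal, WT beside Het, in excitatory classes; points are animals (triangles males, circles females), and bars are the mean ± SD of 6 animals. Atp2b4 does not overlap between the genotypes in L6 CT-like nuclei (107 to 163 against 174 to 223 CPM) and overlaps in L6 IT-like nuclei. Those L6 CT-like values led to the choice of the family and have no test. Atp2b2 does not overlap in L2/3 IT-like nuclei (593 to 754 against 816 to 945 CPM), where it was not called (edgeR, adjusted p = 0.115).

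Atp2b1 outside L6 CT-like nuclei was lower in Het oligodendrocyte precursor-like nuclei, without passing the test. Its 4 WT animals ranged from 101 to 290.2 CPM (median 203) and its 6 Het animals from 81.5 to 168 CPM (median 128), so the groups overlapped. The log2 fold change was -0.74 ± 0.27 (SE; edgeR, unadjusted p = 0.00758, adjusted p = 0.751), and the class gave 140 UMIs of the gene in all. In the other 12 classes the gene stayed between -0.29 and 0.08. Atp2b3 ranged from -0.50 in L5 NP-like to 0.19 in L2/3 IT-like nuclei over its 6 tests, with a smallest adjusted p of 0.808 (edgeR).

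The other routes of calcium handling were read from a list of 40 genes, of which 29 passed the filter in at least 1 of 14 classes. Over 269 tests, in classes that share the same animals, the edgeR quasi-likelihood test called 0, where 0.0490% of all genes tested were called. Of these tests 27 had an unadjusted p under 0.05, beside 6.25% of all genes tested, and DESeq2 called 1. The list's median log2 fold change per class ran from -0.07 to 0.26, beside -0.01 to 0.01 for the median of all genes. Of the list, 25 genes could be tested in L6 CT-like nuclei and 14 of them were above 0, beside 48.3% of all genes.

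Nearest to the threshold in L6 CT-like nuclei was Slc8a2, the sodium calcium exchanger NCX2, at 0.39 ± 0.10 (SE; edgeR, adjusted p = 0.0713, and 0.0289 with DESeq2). Its paralogs Slc8a3 and Slc8a1, which encode NCX3 and NCX1, were at -0.29 and -0.12 (edgeR, adjusted p = 0.294 and 0.606). Atp2a2, the endoplasmic reticulum pump SERCA2, was at 0.07 ± 0.08 (edgeR, adjusted p = 0.857). Of the obligatory pump subunits, neuroplastin (Nptn) was at 0.03 ± 0.07 and basigin (Bsg) at 0.44 ± 0.27 (edgeR, adjusted p = 0.956 and 0.658). By role, the values above 0 were 1 of 3 sodium calcium exchangers, 2 of 4 potassium-dependent exchangers, 1 of 1 endoplasmic reticulum pump, 0 of 1 secretory pathway pump, 2 of 2 pump subunits, 3 of 4 regulators and partners, 1 of 3 store release channels, 3 of 3 genes of store-operated entry and 1 of 4 of mitochondrial uptake.

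**Figure D4:**
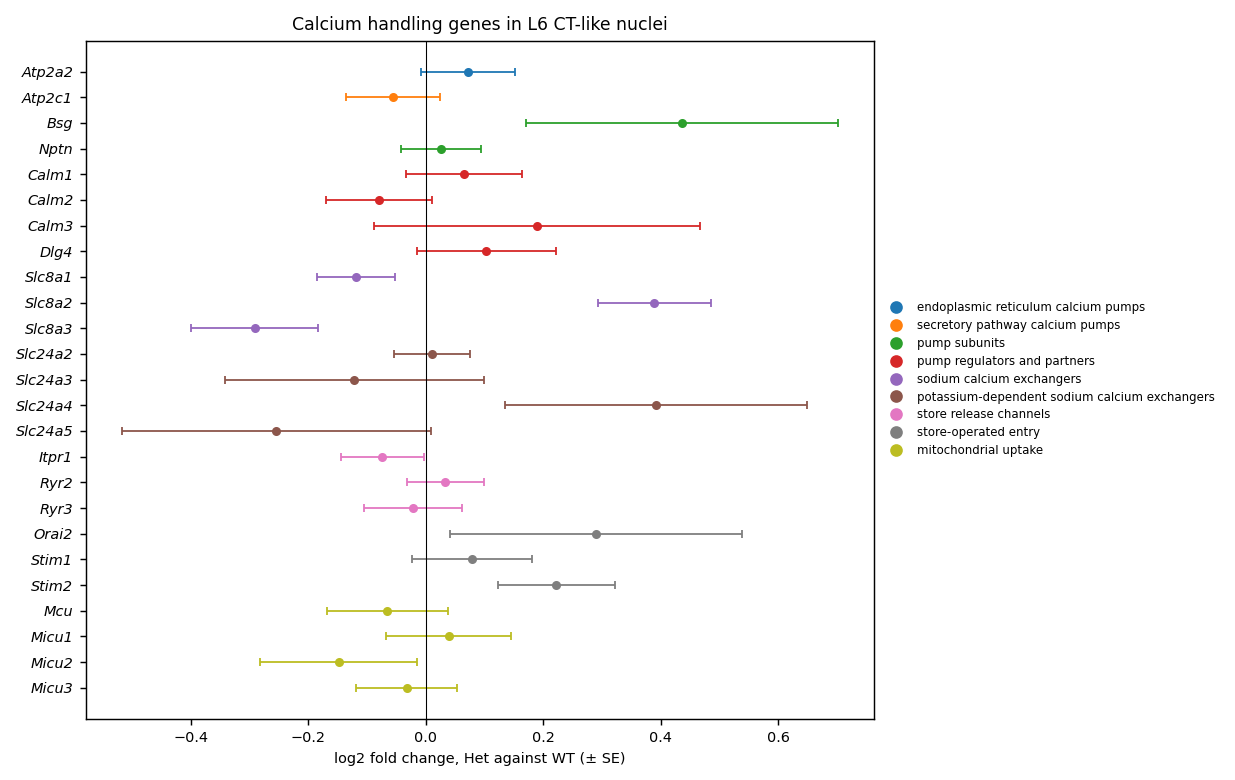
Het against WT log2 fold change of the calcium handling genes that passed the filter in L6 CT-like nuclei, grouped by role, with bars of 1 SE from the edgeR fit. None passed the adjusted threshold, and Slc8a2 (0.39, adjusted p = 0.0713) was nearest to it.

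Atp2b3 is X-linked, so the sexes were compared with genotype as a covariate. Of 40 member tests in 14 classes 0 were called (edgeR quasi-likelihood test), where 0.0946% of all genes tested were, and 2 had an unadjusted p under 0.05, beside 3.71% of all genes. For Atp2b3 the female against male log2 difference ranged from -0.998 to 0.06 over 7 classes. Its extreme was in Sst-like nuclei, where 6 males ranged from 63.8 to 140.0 CPM and 5 females from 30.2 to 73.7 CPM, from 5 to 13 UMIs per animal (-0.998 ± 0.34 SE; edgeR, adjusted p = 0.972). The genotype by sex interaction outside L6 CT-like nuclei was called for 0 of 40 member tests, beside 0.00521% of all genes, with a smallest adjusted p of 0.849 and 3 unadjusted p under 0.05, beside 4.48% of all genes (edgeR). The lowest unadjusted p of these was for Atp2b1 in L2/3 IT-like nuclei, where Het against WT means were 867 against 729 CPM in females and 765 against 861 CPM in males (interaction 0.42 ± 0.15 SE; edgeR, unadjusted p = 0.00822, adjusted p = 0.938).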

How the data were processed

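Nuclei of 12 animals (6 WT, 6 Het) were analysed, and the members and lists were chosen with earlier results of these data known. The deposited values are expected counts (estimated counts of UMIs per gene and nucleus), 92.6% of them whole, which the authors made by mapping to mm10 and counting with ScaleRna. The submitters' processing notes name Seurat 4.3.0 and DESeq2 1.38.3. The study's limits were applied (UMIs from 800 to 6000, genes from 300 to 3000, mitochondrial share up to 1%, log genes over log UMIs from 0.9 upwards), and the 5% with the highest Scrublet score per animal (scanpy 1.11.5) were removed (1748). The 1 transgene row was left out. Classes came from 136 marker genes, none a pump gene: neurons needed 2 broad marker UMIs and a 3-fold margin, types 3 UMIs from 2 markers and a 1.5-fold margin, and non-neuronal nuclei 5 UMIs. Counts were summed per animal and class (at least 10 nuclei and 3 animals per genotype), rounded, and tested with edgeR 4.0.16 (glmQLFit robust, TMM, filterByExpr, genotype only, Benjamini-Hochberg over all genes of a class); a call needed an adjusted p under 0.05 and a log2 change over 0.2. DESeq2 1.42.0 was an alternative. Without strand information in the sources used here, antisense reads cannot be told apart. Intervals cover counting error only. Code was tested on simulated data. By the rule for named genes, Het against WT was printed for Atp2b4 in each class tested, for other members in L6 CT-like nuclei or where called or with an unadjusted p under 0.01, and for list genes where called, with Atp2a2, Slc8a1, Slc8a2, Slc8a3, Nptn and Bsg in L6 CT-like nuclei; Stim2 and Slc24a4 were added for calls under alternatives.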

Additional observations from a re-analysis of the deposited data

Results flagged for a closer look

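In each class, the 4 to 6 animals of a genotype were searched for a single animal far from the rest, over 80 groups, and 5 stood apart, where chance would give about 1 in 20 groups. Atp2b2 in L2/3 IT-like nuclei was at 593.24 CPM in WT female 3, below the other WT animals at 712 to 754 CPM, which themselves lay below the lowest Het animal. Atp2b2 in L4/5 IT-like nuclei was at 838.66 CPM in WT male 3, above the other WT animals at 557 to 658 CPM and inside the Het range. Atp2b2 in other inhibitory nuclei was at 393.02 CPM in Het female 1, against 485 to 515 CPM in the other Het animals. Atp2b1 in L5 NP-like nuclei was at 697.32 CPM in Het male 3, against 493 to 559 CPM. Atp2b1 in Vip-like nuclei was at 602.3 CPM in Het female 2, against 179 to 268 CPM, from 27 UMIs in 14 nuclei.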

How the results depend on the processing

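Of 388 values recomputed under alternatives, 360 were counted as the same. Counts had to stay within a fixed ratio and mean levels within the SD over animals. Tested fold changes had to keep their direction and side of the threshold. Fold changes in L6 CT-like nuclei, without a test, had to move by less than the SD of WT animals on the log2 scale. There Atp2b1 changed sign, from -0.06 to 0.03, and was counted as the same. The count of pump genes called outside L6 CT-like nuclei was 0, and 1 with DESeq2, with no filter on low counts and with the replicate block; leaving out 1 animal gave 0 to 1, the 1 without WT male 1. The replicate number of the labels as a block took Atp2b2 in L6 IT-like nuclei to 0.75 (edgeR, adjusted p = 0.0482). Same-numbered animals of a sex were correlated in L2/3 IT-like, L6 CT-like and other excitatory nuclei, at -0.0986 to 0.233. In these classes 4, 3 and 2 of 6 WT animals correlated best with their own number. Sex was not removed and L6 IT-like nuclei were not checked. These values therefore cannot decide whether the labels' numbers pair the animals. The calcium handling count was 0, and 1 with DESeq2, with no filter and with no doublet removal (Slc8a2 in L6 CT-like nuclei each time). It was 2 without the limits on UMIs, genes and their ratio (Stim2 in L6 CT-like, 0.29, and Slc24a4 in L4/5 IT-like nuclei, 0.58). With 1 animal left out it was 0 to 1, the 1 without WT male 1. Of the neighbouring classes, 6 steps passed, against 14 without the limits on UMIs, genes and their ratio, 3 with a stricter margin between classes and 0 in the 6 WT animals alone, where the smallest p is 0.03125, and 4 to 8 with 1 animal left out. Atp2b4 reversed to -0.0181 in L2/3 IT-like nuclei with the stricter margin (-0.0559 to 0.179 with 1 animal left out, below 0 without WT male 2, WT female 3 or Het female 2). It reversed to 0.0425 in L6 IT-like and -0.17 in striatal projection-like nuclei without the limits on UMIs, genes and their ratio. In other inhibitory nuclei it reversed to -0.014 without Het female 2 (range -0.014 to 0.396). The cause was not tested. With 1 animal left out Atp2b4 ran from -0.166 to -0.022 in L6 IT-like nuclei (nearest to 0 without WT female 2 or Het female 3) and from 0.224 to 0.697 in striatal projection-like nuclei (highest without WT male 2, lowest without Het female 3, WT female 1 or WT male 1). In L6 CT-like nuclei Atp2b4 ran from 0.33 to 0.61 over the alternatives. These refits use the values that led to the choice of the family, so the range is a description and no support. Sex gave 0 calls under all 3 alternatives. Atp2b3 and Atp2b4 passed the filter on low counts in 6 and 5 of the 13 other classes, and elsewhere no difference was tested.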

Other observations

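Atp2b1 in striatal projection-like nuclei, its highest class, was spread more widely between animals than in any excitatory class with a similar level. The 6 WT animals were at 960, 998, 1002, 1012, 1748 and 1783 CPM, and the 6 Het animals at 930, 960, 1231, 1337, 1657 and 1667 CPM. The 4 animals at 1657 CPM or above were of both genotypes, and their values rested on 120 to 343 UMIs each. Among WT animals they were males only, with males at 1002 to 1783 CPM and females at 960 to 1012. Among Het animals males ranged from 930 to 1657 CPM and females from 960 to 1667 (n = 3 each). The female against male log2 difference was -0.29 ± 0.18 (SE, edgeR adjusted p = 0.998).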
